A study of Mus musculus with 6 samples.

Results

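Myosin light chains were examined in C2C12 cells in which an enhancer of *Myog* was repressed. The 10 genes *Myl1*, *Myl2*, *Myl3*, *Myl4*, *Mylpf*, *Myl6*, *Myl6b*, *Myl9*, *Myl12a* and *Myl12b* were chosen by name, out of 23231 genes with a count in at least 1 library. All 10 were counted in at least 1 library, and 9 of them passed the filter on low counts that left 14378 genes for testing. *Myl12b* is the symbol of 2 Ensembl genes, so the 10 symbols cover 11 gene identifiers.

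C2C12 cells are mouse myoblasts of an established line, which form myotubes in low serum. Lentivirus was given to both groups of 3 libraries at an MOI (viruses per cell) of 100, puromycin at 2 μg/ml selected the carriers, and RNA was taken after 5 days in 2% horse serum. dCas9-KRAB cells expressed, from a ubiquitin promoter, a nuclease-dead Cas9 joined to the KRAB repressor domain, without an enhancer sgRNA, and dCas9-KRAB-En5 cells expressed the same fusion with 2 sgRNAs against Myog-En5. The cells were selected as transduced populations, and the libraries include no dCas9-KRAB group with an sgRNA against another site. An effect of carrying any sgRNA therefore cannot be told apart from one of targeting Myog-En5. The labels do not say that the 3 libraries of a group came from separate cultures, so p-values measure the spread between these samples, which may be technical.

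The light chains are small EF-hand proteins that wrap around the neck of the myosin heavy chain. Each neck carries an essential (alkali) chain and a regulatory chain, and phosphorylation of the regulatory chain by myosin light chain kinases and other kinases sets contraction in smooth and nonmuscle cells and tunes it in striated muscle. Sarcomeric myosin uses *Myl1*, *Myl3* and *Myl4* as essential chains and *Mylpf* and *Myl2* as regulatory chains. Smooth and nonmuscle myosin uses *Myl6* and *Myl6b* as essential chains and *Myl9*, *Myl12a* and *Myl12b* as regulatory chains. Fast skeletal fibers use mainly *Mylpf* with *Myl1*, slow fibers and the ventricle use *Myl2* with *Myl3*, and *Myl4* belongs to embryonic muscle and the atrium.

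The libraries held 31831093 to 73988425 counts, and 3 counts, the limit that a count of 0 allows, corresponded to 0.0405 to 0.0942 CPM, a library's counts scaled to a common total. This limit covers counting error alone. Replicate 3 of dCas9-KRAB-En5 had the shortest gene list, 13991 genes, and the other libraries listed 17084 to 19395. *Myog* had 43211, 68488 and 74845 counts in the dCas9-KRAB libraries and 12, 0 and 0 in the dCas9-KRAB-En5 libraries, in the direction of the labels. *Actb*, a cytoplasmic actin often used as a reference, had 879 ± 385 and 546 ± 225 TPM (SD, n = 3 each), with an adjusted p of 0.239 in edgeR. The labelled cell type was checked against marker lists, each summed as TPM (counts corrected for gene length and library size). The 7 myoblast and early muscle markers summed to 496 to 1877 TPM in dCas9-KRAB and 5.83 to 15.9 TPM in dCas9-KRAB-En5, where *Myod1* lay between 0 and 0.0761 TPM. *Pax7*, a defining gene of muscle stem cells, was at or near 0 in every library. The 12 macrophage markers summed to 3662 to 4385 TPM in dCas9-KRAB and 5258 to 8185 TPM in dCas9-KRAB-En5, and 6 of the 12 (*Csf1r*, *Cd68*, *Tyrobp*, *Fcer1g*, *Laptm5* and *Cd14*) had at least 10 TPM in all 6 libraries. *Mrc1* was listed in none, and *Aif1* was at 2.79 TPM or less in every library. In dCas9-KRAB, *Ptprc* was at 1.61 TPM or less and *Itgam* at 4.64 TPM or less. In dCas9-KRAB-En5 replicates 1, 2 and 3, *Itgam* had 42.0, 63.3 and 3.57 TPM and *Ptprc* 7.91, 6.16 and 1.06 TPM. *Adgre1* had 7.62 to 17.7 TPM in dCas9-KRAB and 29.6 to 135 TPM in dCas9-KRAB-En5, and *Cx3cr1* 9.59 to 40.7 TPM over all libraries. The levels of the 6 macrophage markers named first go against the C2C12 label in both groups. *Mrc1* and *Aif1* were low or absent in both groups, and *Ptprc* and *Itgam* were low in dCas9-KRAB. The near absence of myoblast markers in dCas9-KRAB-En5 also goes against the label. Whether the samples hold other cells was not tested, and the libraries are named by their labels throughout. The smooth muscle list of 7 genes summed to 167 to 361 TPM and 4.96 to 10.8 TPM, and its defining genes *Tagln*, *Cnn1*, *Myh11*, *Myocd* and *Lmod1* were at 0.363 TPM or less in every library. The 8 fibroblast markers summed to 70.3 to 206 TPM and 20.9 to 39.2 TPM, and the 5 endothelial markers to at most 0.636 TPM. The part of these marker levels in the light chain values below was not tested, and in bulk RNA fewer muscle cells and less RNA per muscle cell cannot be told apart.

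To show where the most abundant sarcomeric chain and 2 smooth and nonmuscle chains start, the sequence before a RefSeq start of each is given (GRCm38.p6, on the strand of the gene, 5′ to 3′). The stretches shown contain no exon annotated in GENCODE, and the *Myl9* stretch stops where its first exon begins. The *Mylpf* stretch lies inside the annotated gene, before the RefSeq start, and the *Myl6b* stretch lies immediately before the gene. Capitals mark an E-box (CANNTG, the site of myogenic bHLH factors such as MYOG) in *Mylpf* and *Myl6b*, and the CArG box (the site of serum response factor) in *Myl9*.
Mylpf, chr7:127211358-127211607, plus strand: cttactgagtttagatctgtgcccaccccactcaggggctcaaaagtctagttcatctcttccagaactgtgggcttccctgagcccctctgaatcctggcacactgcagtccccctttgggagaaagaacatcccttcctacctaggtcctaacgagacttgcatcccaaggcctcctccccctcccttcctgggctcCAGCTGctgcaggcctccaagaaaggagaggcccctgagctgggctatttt
Myl6b, chr10:128498686-128498935, minus strand: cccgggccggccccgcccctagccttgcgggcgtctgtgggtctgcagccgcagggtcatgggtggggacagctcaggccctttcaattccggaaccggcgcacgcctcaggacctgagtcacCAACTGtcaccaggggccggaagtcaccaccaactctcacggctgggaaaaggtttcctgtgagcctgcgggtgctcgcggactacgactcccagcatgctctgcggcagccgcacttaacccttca
Myl9, chr2:156775214-156775419, plus strand: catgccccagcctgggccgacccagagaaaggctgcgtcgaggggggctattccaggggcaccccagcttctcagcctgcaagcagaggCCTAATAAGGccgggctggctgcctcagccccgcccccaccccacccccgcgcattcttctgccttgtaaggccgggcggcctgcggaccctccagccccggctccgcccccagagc
The *Mylpf* E-box is CAGCTG and begins 51 bases before the start, and that of *Myl6b* begins 127 bases before it. Over the 12 RefSeq windows of 250 bases found for the 10 members, searched on both strands, CANNTG was found in 8, against 66.2% of 32851 windows of all genes. CAGCTG, which is also a CANNTG, was found in 4 windows, those of *Myl1*, *Mylpf*, *Myl12a* and 1 of *Myl2*, against 13% of all windows. By class, CAGCTG was in 3 of 6 sarcomeric windows and in 1 of 6 smooth and nonmuscle windows. The CArG box was found in 3 windows, of *Myl3*, *Myl6* and *Myl9*, against 1.47% of all. The MEF2 site was found in 0 of the 12, against 2.92% of all. Both *Myl2* windows lie before the gene annotated in GENCODE, with RefSeq starts 8227 and 7762 bases from its nearest start. The CAGCTG of *Myl2* is in the window at 7762 bases.

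In dCas9-KRAB cells the light chain transcripts were mostly those of fast and embryonic skeletal muscle, and in dCas9-KRAB-En5 cells they were almost entirely nonmuscle. A gene was called where edgeR gave an adjusted p no higher than 0.01 and a log2 fold change, dCas9-KRAB-En5 over dCas9-KRAB, no smaller than 1 in size. Of the 9 members tested, 7 were called lower and 0 higher, where 4.67% of all tested genes were called lower and 1.52% higher. All 4 sarcomeric members tested and 3 of the 5 smooth and nonmuscle members were among the 7. Without dCas9-KRAB-En5 replicate 3 the number was 8, all lower, in a fit that called 14.0% of all genes lower and 11.7% higher. Without any other single library it was 5. The median log2 fold change was -12.08 over the 4 sarcomeric members tested and -2.39 over the 5 smooth and nonmuscle members, beside 0.08 over all genes tested. The sarcomeric median is the same with *Myl2* set at its bound, given below. In all 10 members the TPM of every dCas9-KRAB-En5 library lay below that of every dCas9-KRAB library, as it did for 19.7% of the genes tested. Each such separation gave p = 0.1 in the two-sided exact permutation test, the smallest that 3 against 3 allows.

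**Figure D1:**
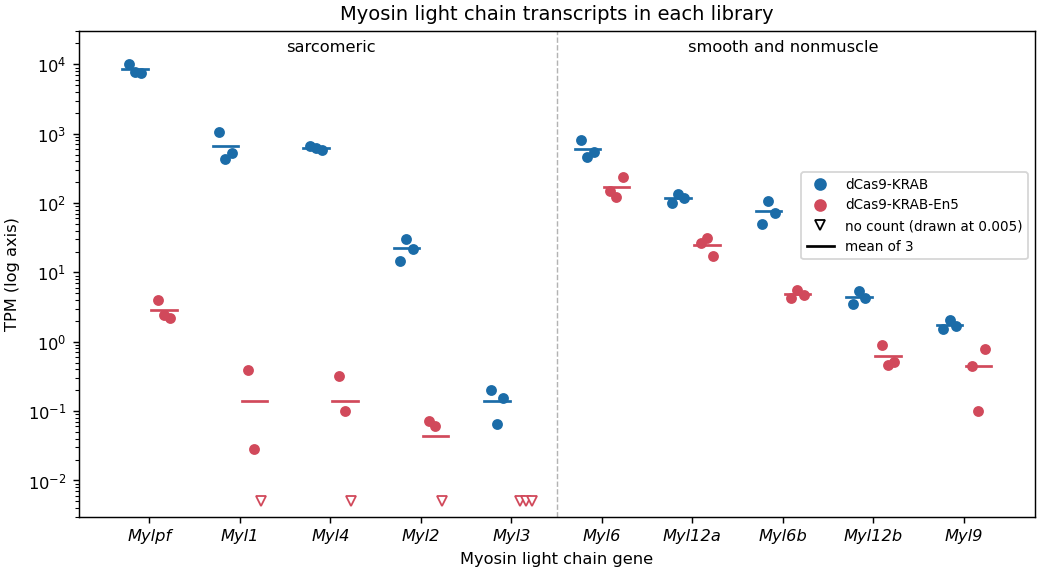
TPM of the 10 light chain genes (log axis) in each of the 3 dCas9-KRAB and 3 dCas9-KRAB-En5 libraries. Points are libraries, bars are means of 3, and open triangles are libraries with no count, drawn at 0.005. The 2 groups are separated for each gene, as for *Mylpf*, which lay at 7623 to 9994 TPM and at 2.18 to 3.96 TPM.

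The sarcomeric regulatory chains fell to a few TPM or less. *Mylpf*, the fast skeletal regulatory chain (chromosome 7, 127208890 to 127214298, plus strand), had 288017, 305636 and 362570 counts in dCas9-KRAB and 89, 44 and 53 counts in dCas9-KRAB-En5. These counts corresponded to 9994, 7689 and 7623 TPM and to 3.96, 2.44 and 2.18 TPM. It ranked 8th of all genes by mean TPM in dCas9-KRAB, with 8436 ± 1350.2 TPM (SD, n = 3), and 8862nd in dCas9-KRAB-En5, with 2.86 ± 0.958 TPM (SD, n = 3). *Mylpf* was 3201-fold lower by mean normalized CPM, with a log2 fold change of -11.65 ± 0.79 (SE) and an adjusted p of 1.82e-05 in edgeR. *Mylpf* stayed above the 3-count limit in each dCas9-KRAB-En5 library.

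*Myl2*, the slow and ventricular regulatory chain (chromosome 5, 122100951 to 122113472, plus strand), had 14.6, 30.7 and 22.1 TPM in dCas9-KRAB. It had 3, 2 and 0 counts in dCas9-KRAB-En5, all at or under the 3-count limit. *Myl2* was therefore at least 302-fold lower, computed against 3 counts per library, with an adjusted p of 2.88e-05 in edgeR. Its level in dCas9-KRAB, 22.5 ± 8.10 TPM (SD, n = 3), was far under that of *Mylpf*, and its fitted log2 fold change of -9.20 depends on the prior count.

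Of the sarcomeric essential chains, *Myl1* and *Myl4* fell from mean TPM values near each other to a few counts. *Myl1*, the source of the fast skeletal alkali chains (chromosome 1, 66924295 to 66945404, minus strand), had 58631, 34017 and 49282 counts in dCas9-KRAB and 17, 1 and 0 in dCas9-KRAB-En5. In TPM these were 1042, 438 and 531 against 0.387, 0.0284 and 0. The replicate 1 value of dCas9-KRAB stood highest, and the groups did not overlap. The log2 fold change was -12.54 ± 1.25 (SE), with an adjusted p of 8.74e-05 in edgeR. Its size rests on dCas9-KRAB-En5 replicate 1, without which the other libraries of its group held 1 count in all and the fit gave -15.62.

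*Myl4*, the embryonic and atrial essential chain (chromosome 11, 104550663 to 104595753, plus strand), had 658, 625 and 576 TPM in dCas9-KRAB, with a mean of 620 ± 41.3 TPM (SD, n = 3). In dCas9-KRAB-En5 it had 31, 8 and 0 counts, or 0.316, 0.102 and 0 TPM. The log2 fold change was -12.50 ± 1.17 (SE), with an adjusted p of 5.47e-05 in edgeR. Without dCas9-KRAB-En5 replicate 1 it was -13.95. With limma on log2(TPM + 1), a scale that understates the change to a low level, *Myl1* and *Myl4* had log2 fold changes of -9.12 and -9.10. For *Myl1* and *Myl4* alike, replicate 1 held most of the counts left in dCas9-KRAB-En5 and replicate 3 held none.

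*Myl3*, the slow and ventricular essential chain (chromosome 9, 110741861 to 110769798, plus strand), was barely detected. It had 11, 5 and 14 counts in dCas9-KRAB and 0 in each dCas9-KRAB-En5 library, and it did not pass the filter on low counts. Computed against 3 counts per library it was at least 2.06-fold lower. Tested without the filter, its adjusted p was 0.115 in edgeR.

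The smooth and nonmuscle chains differed by smaller steps and were counted in every library. *Myl6*, the essential chain used in most cell types (chromosome 10, 128490860 to 128494145, minus strand), had 811, 464 and 549 TPM in dCas9-KRAB and 149, 122 and 239 TPM in dCas9-KRAB-En5. The groups did not overlap, and dCas9-KRAB-En5 replicate 3 stood highest in its group. *Myl6* did not pass the cutoff, with a log2 fold change of -1.70 ± 0.65 (SE) and an adjusted p of 0.0912 in edgeR. Without dCas9-KRAB-En5 replicate 3 the log2 fold change was -2.80 ± 0.43 (SE), with an adjusted p of 0.000825 in edgeR. In that library the macrophage markers summed to 5258 TPM, the lowest of the 3 dCas9-KRAB-En5 libraries, and fewer genes were listed than in any other. Its normalization factor (TMM) was 0.730, against 1.155 and 1.221 in dCas9-KRAB-En5 replicates 1 and 2. By normalized CPM, *Myl6* had 752 in replicate 3 against 216 and 153. With total counts in place of TMM, over all 6 libraries, its log2 fold change was -1.88 ± 0.50 (SE), with an adjusted p of 0.0345 in edgeR. The part of the marker levels, the gene list and the factor in the *Myl6* value was not tested.

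*Myl6b*, the neighboring essential chain gene of slow muscle and nonmuscle cells (chromosome 10, 128494157 to 128498685, minus strand), had 49.1, 108 and 72.7 TPM in dCas9-KRAB. In dCas9-KRAB-En5 it had 4.34, 5.56 and 4.73 TPM, with a spread between libraries of 0.619 TPM (SD, n = 3). *Myl6b* was 15.7-fold lower in mean normalized CPM. The log2 fold change was -3.98 ± 0.54 (SE), with an adjusted p of 0.00067 in edgeR. *Myl6* and *Myl6b* lie on the same strand with no overlap of their annotated exons.

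*Myl9*, the smooth muscle regulatory chain (chromosome 2, 156775420 to 156781658, plus strand), was a rare transcript in both groups. It had 48, 91 and 88 counts in dCas9-KRAB and 11, 2 and 21 counts in dCas9-KRAB-En5, or 1.52, 2.09 and 1.69 TPM against 0.447, 0.102 and 0.790 TPM. *Myl9* was not called, with a log2 fold change of -1.71 ± 1.00 (SE) and an adjusted p of 0.256 in edgeR. *Acta2*, a smooth muscle actin that early muscle cells also express, had 160 to 339 TPM in dCas9-KRAB and 0.806 to 8.79 TPM in dCas9-KRAB-En5.

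*Myl12a*, a nonmuscle regulatory chain (chromosome 17, 70993656 to 71002878, minus strand), had 98.8, 137 and 117 TPM in dCas9-KRAB and 26.5, 31.7 and 17.0 TPM in dCas9-KRAB-En5. It was 5.23-fold lower by mean normalized CPM, with a log2 fold change of -2.39 ± 0.44 (SE) and an adjusted p of 0.00496 in edgeR. *Myl12b*, its close copy (chromosome 17, 70973133 to 70990890, minus strand), had 3.47, 5.47 and 4.32 TPM in dCas9-KRAB and 0.903, 0.468 and 0.505 TPM in dCas9-KRAB-En5. Its log2 fold change was -2.90 ± 0.60 (SE), with an adjusted p of 0.00811 in edgeR. Neither gene kept its call in 5 of the 6 fits that left out 1 library, where the adjusted p reached 0.0336 for *Myl12a* and 0.0434 for *Myl12b* in edgeR. The fit that kept both calls was the one without dCas9-KRAB-En5 replicate 3. *Myl12b* also lost its call with total counts in place of TMM, at an adjusted p of 0.0134 in edgeR. The same held with limma on log2(TPM + 1) and log2(TPM + 0.1), at an adjusted p of 0.0308 and 0.0335.

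The counts of *Myl12a* and *Myl12b* are uncertain, because the annotation holds a second gene named *Myl12b* (ENSMUSG00000117098) that reads through both. All of its 1201 exon bases lie within exons of *Myl12a* (462 bases) or of the other *Myl12b* gene (739 bases). It had 1408, 2534 and 1685 counts in dCas9-KRAB and 178, 193 and 222 counts in dCas9-KRAB-En5, above the counts of the other *Myl12b* gene in every library. *Myl12a* also shares 207 exon bases with *Myom1* on the opposite strand, and whether strand was used in counting is not given in the sources used here. With the counts of the 3 genes summed, an alternative chosen after seeing the data, the log2 fold change was -2.40 ± 0.45 (SE), with an adjusted p of 0.00514 in edgeR. *Myl12a* supplied 83.7% to 89.4% of that sum in each library.

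**Figure D2:**
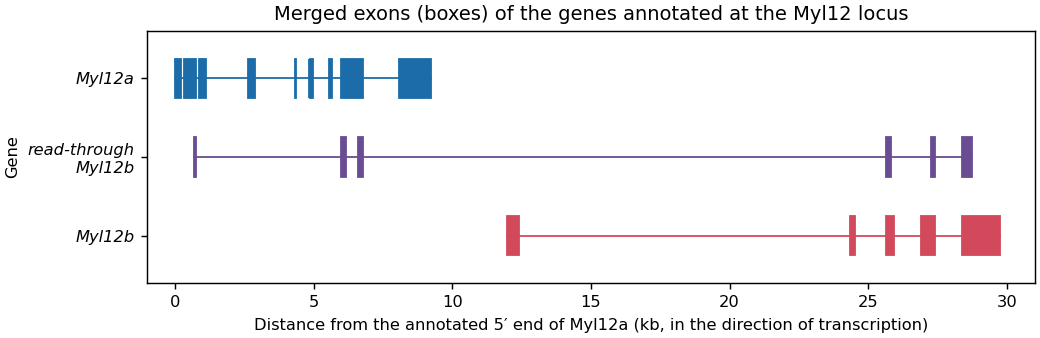
Exons of *Myl12a*, of the read-through gene and of *Myl12b* (boxes, exons of all transcripts merged) against the distance in kb from the annotated 5′ end of *Myl12a*. Every box of the read-through gene falls within a box of *Myl12a* or *Myl12b*.

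*Myl1* and *Myl6* share stretches of sequence with pseudogenes elsewhere in the genome. *Mylf-ps*, a pseudogene of *Myl1*, shared 65.1% of its 50-base stretches with *Myl1* transcripts, and had 11978, 7364 and 11624 counts in dCas9-KRAB and 3, 1 and 0 in dCas9-KRAB-En5. Its counts followed those of *Myl1* across the dCas9-KRAB libraries, lowest in replicate 2, and reads of the pair may have been split between them. With both summed, *Myl1* held 80.9% to 83.0% of the counts in dCas9-KRAB, and the log2 fold change was -12.55. *Myl6* shares such stretches with 5 pseudogenes, and it held 98.3% to 99% of the counts summed with theirs in each library. With them included its log2 fold change was -1.70. *Mylpf* and *Myl9* shared no 50-base stretch with another gene.

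Set side by side as TPM, the light chains exchanged their leading member. Sarcomeric members held 92.4%, 92.5% and 92.2% of the summed light chain TPM in dCas9-KRAB and 2.54%, 1.62% and 0.824% in dCas9-KRAB-En5. *Mylpf* alone held 80.0% ± 1.06 (SD, n = 3) in dCas9-KRAB, and *Myl6* alone held 81.9% ± 7.85 (SD, n = 3) in dCas9-KRAB-En5. The larger share of *Myl6* was not a higher level, since its own TPM was 608 ± 181 (SD, n = 3) in dCas9-KRAB and 170 ± 61.5 (SD, n = 3) with the sgRNAs. The 10 genes together took 1.27%, 0.950% and 0.950% of all TPM in dCas9-KRAB and 0.0186%, 0.0162% and 0.0265% in dCas9-KRAB-En5. No p is given for these shares, which are sums over the chosen genes. The shares, the ratios and the order below leave out the read-through *Myl12b* gene. With it included, an alternative chosen after seeing the data, the mean sarcomeric share was 92.0% in dCas9-KRAB and 1.59% with the sgRNAs.

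**Figure D3:**
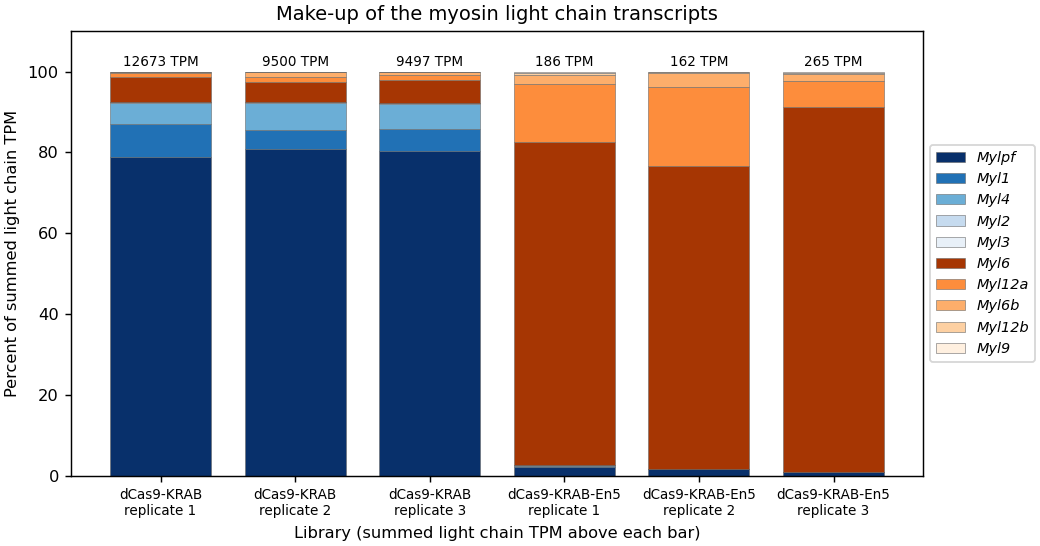
Share of each light chain gene in the summed light chain TPM of each library (percent, bars from 0 to 100), with the sum written above each bar. Blue shades are sarcomeric and orange shades smooth and nonmuscle chains. Sarcomeric chains fill 92.2% to 92.5% of the dCas9-KRAB bars and 0.824% to 2.54% of the dCas9-KRAB-En5 bars.

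Within the sarcomeric class the essential chains were fewer than the regulatory chains at the RNA level. The ratio of essential to regulatory TPM was 0.170, 0.138 and 0.145 in dCas9-KRAB, and 0.174, 0.0520 and 0 in dCas9-KRAB-En5, where it rests on a few counts. By CPM, not divided by gene length, the mean ratio was 0.472 in dCas9-KRAB, against 0.151 by TPM. Between the essential chains, the TPM ratio of *Myl1* to *Myl4* was 1.58, 0.701 and 0.921 in dCas9-KRAB replicates 1, 2 and 3. By TPM neither was therefore the higher in all 3 libraries. By CPM the ratio was 0.708, 0.314 and 0.412, so *Myl4* was the higher in all 3 dCas9-KRAB libraries on that scale. In the smooth and nonmuscle class the essential chains exceeded the regulatory chains. Their TPM ratios were 8.28, 3.97 and 5.06 in dCas9-KRAB and 5.51, 3.95 and 13.3 in dCas9-KRAB-En5. These last ratios overlapped between the groups.

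Ordered by mean TPM in dCas9-KRAB, *Mylpf* came first, followed by *Myl1*, *Myl4* and *Myl6*, whose ranges overlapped from each to the next. *Myl12a* and *Myl6b* came next, also with overlapping ranges, and then *Myl2*, *Myl12b*, *Myl9* and *Myl3*, each below the range of the one before. In dCas9-KRAB-En5 the order was *Myl6*, *Myl12a*, *Myl6b* and *Mylpf*, without overlap between neighbors. The other 6 members, from *Myl12b* at 0.625 ± 0.241 TPM (SD, n = 3) down to *Myl3* at 0, each overlapped the next. The read-through gene, at 43.6 ± 12.5 and 8.18 ± 1.24 TPM (SD, n = 3 each), would by its mean have stood between *Myl6b* and *Myl2* in dCas9-KRAB and between *Myl12a* and *Myl6b* in dCas9-KRAB-En5. TPM here divides by the merged exons of all transcripts, 2074 bases for *Myl1*, 4637 for *Myl4* and 3187 for *Myl6*. By mean normalized CPM in dCas9-KRAB the order of these genes was another, *Myl4* (1774), *Myl6* (1213) and *Myl1* (875). Of the light chain genes outside the 10, *Myl7* was listed in no library and *Myl10* had 2 counts in 1 dCas9-KRAB library.

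The heavy chains that the light chains bind were compared in the same fit. Of 9 sarcomeric heavy chain genes, 4 were tested and 2 were called lower, beside 4.67% of all tested genes. *Myh3*, the embryonic heavy chain, had 13.8, 37.5 and 16.5 TPM in dCas9-KRAB and 0.132, 0.195 and 0.0721 TPM in dCas9-KRAB-En5, with a log2 fold change of -7.59 ± 0.61 (SE) and an adjusted p of 2.14e-05 in edgeR. *Myh1*, a fast adult heavy chain, was at least 29.0-fold lower with an adjusted p of 0.00428 in edgeR, and lost its call without any 1 of the dCas9-KRAB libraries or without dCas9-KRAB-En5 replicate 2, where the adjusted p lay between 0.0103 and 0.0299. *Myh8* was at least 6.89-fold lower, with an adjusted p of 0.0161 in edgeR. *Myh7b* had a positive log2 fold change of 1.33 ± 0.82 (SE), with an adjusted p of 0.283 in edgeR. The mean TPM of *Mylpf* in dCas9-KRAB (8436) stood far above that of *Myh3* (22.6), the most abundant sarcomeric heavy chain, on the same per-length scale.

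Of the 4 smooth and nonmuscle heavy chain genes, 3 were tested and 0 were called in edgeR, beside 4.67% lower and 1.52% higher of all tested genes. At an adjusted p that missed the cutoff, *Myh9*, the main nonmuscle heavy chain of many cells, had 9.85, 41.9 and 17.8 TPM in dCas9-KRAB and 70.4, 122 and 14.9 TPM in dCas9-KRAB-En5. Its log2 fold change was 1.21 ± 0.60 (SE), with an adjusted p of 0.187 in edgeR, and the groups overlapped through replicate 3 of dCas9-KRAB-En5. *Myh10* had a log2 fold change of -2.68 ± 0.99 (SE) with an adjusted p of 0.0828 in edgeR, and *Myh14* one of 0.43 with an adjusted p of 0.726. The TPM of *Myh10* did not overlap between the groups. DESeq2 called *Myh10* lower, with a log2 fold change of -2.80 ± 0.85 (SE) and an adjusted p of 0.0072. The ratio of *Myl12a* to *Myh9* TPM was 10.0, 3.26 and 6.58 in dCas9-KRAB and 0.376, 0.261 and 1.14 in dCas9-KRAB-En5. This ratio did not overlap between the groups (two-sided exact permutation test on log2 ratios, p = 0.1, the smallest possible, n = 3 per group). The ratio of *Myl6* to *Myh9*, at 82.3, 11.1 and 30.9 against 2.12, 1.00 and 16.1, did overlap (two-sided exact permutation p = 0.2, n = 3 per group).

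The kinases, phosphatase subunits and other regulators that act on the regulatory chain were examined next, from a list of genes chosen by function. Of 21 such genes, 20 were listed, 18 were tested, 0 were called lower and 1 was called higher. Among all tested genes 4.67% were called lower and 1.52% higher, so this count is near the background. The median log2 fold change of the regulators was 0.15. *Ppp1r12b*, a targeting subunit of myosin phosphatase, had 0.209, 0.478 and 0.359 TPM in dCas9-KRAB and 5.93, 5.09 and 0.645 TPM in dCas9-KRAB-En5. The log2 fold change was 3.07 ± 0.60 (SE), with an adjusted p of 0.0064 in edgeR. It lost its call without any 1 library other than dCas9-KRAB-En5 replicate 3, where the adjusted p lay between 0.0133 and 0.0507 in edgeR.

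Among the kinases, *Mylk2*, the skeletal muscle light chain kinase, had 1.91 ± 0.890 TPM in dCas9-KRAB and 1.04 ± 0.536 TPM in dCas9-KRAB-En5 (SD, n = 3), with an adjusted p of 0.214 in edgeR. *Mylk*, the smooth muscle and nonmuscle kinase, was at 0.236 TPM or less in every library. *Dapk3*, a kinase of the regulatory chain in smooth muscle and nonmuscle cells, had 34.1, 98.0 and 82.2 TPM in dCas9-KRAB and 22.0, 27.3 and 28.4 TPM in dCas9-KRAB-En5. Its groups did not overlap by TPM. By normalized CPM they did, with 56.2 in dCas9-KRAB replicate 1 and 70.8 in dCas9-KRAB-En5 replicate 3, and the adjusted p was 0.097 in edgeR. *Rock1*, a kinase that phosphorylates the regulatory chain and inhibits its phosphatase, had 0.0835, 0.0916 and 0.0506 TPM in dCas9-KRAB and 0.809, 0.619 and 0.0193 TPM in dCas9-KRAB-En5, with an adjusted p of 0.105 in edgeR. *Rock2* had a log2 fold change of 0.46 with an adjusted p of 0.639 in edgeR. *Mylk3*, the cardiac light chain kinase, was listed in no library, and *Mylk4* had too few counts to be tested.

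*Ppp1r14b*, a phosphatase inhibitor and the most abundant regulator, had 685, 850 and 859 TPM in dCas9-KRAB and 334, 412 and 641 TPM in dCas9-KRAB-En5, with an adjusted p of 0.49 in edgeR. *Ppp1r14a*, the inhibitor known from smooth muscle, had 6, 35 and 40 counts in dCas9-KRAB and 0 in each dCas9-KRAB-En5 library, and was not tested. *Calm2* and *Calm3*, which encode calmodulin, the activator of the light chain kinases, had log2 fold changes of -0.70 and -0.03 with adjusted p of 0.328 and 0.97 in edgeR. *Rhoa*, the GTPase upstream of *Rock1* and *Rock2*, had a log2 fold change of -0.13 with an adjusted p of 0.863 in edgeR. Without dCas9-KRAB-En5 replicate 3, 5 of 19 regulators tested passed both cutoffs, *Ppp1r12b* and *Rock1* higher and *Dapk3*, *Ppp1r14a* and *Ppp1r14b* lower. In that fit 14.0% of all genes were called lower and 11.7% higher, so this count is near the background.

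**Figure D4:**
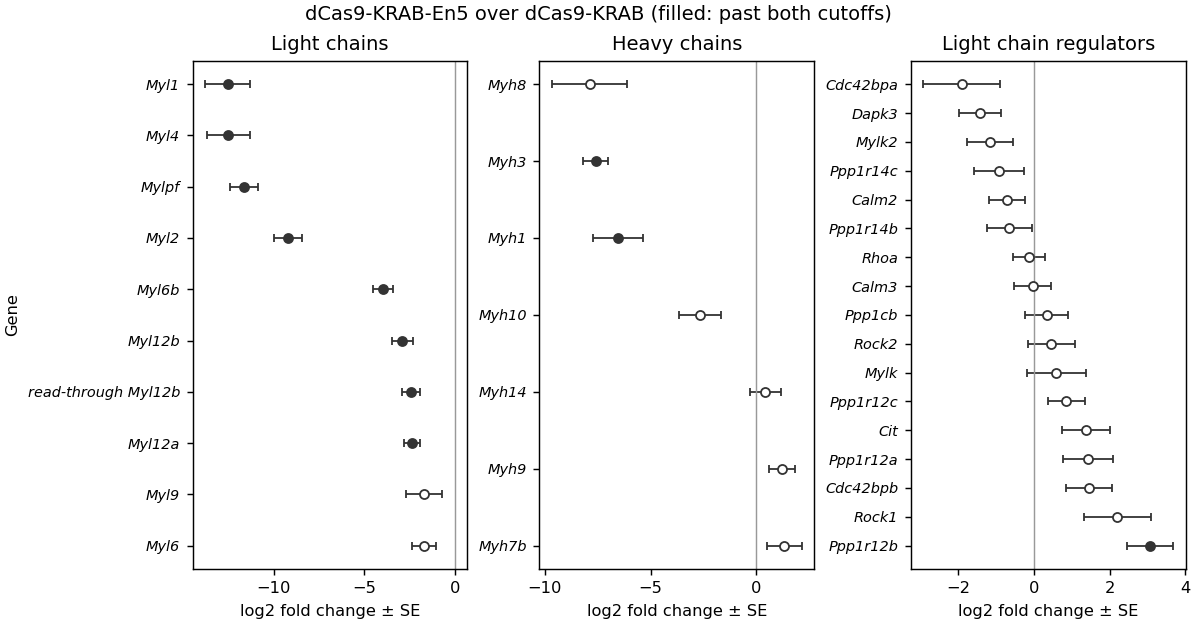
edgeR log2 fold changes with their SE for the tested light chain genes, heavy chain genes and 17 of the 18 tested light chain regulators, each panel on its own x scale. Filled points passed both cutoffs. All light chain points lie below 0, from -12.54 for *Myl1* to -1.70 for *Myl6*, while the regulators lie on both sides of 0.

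The genes most like a member were named by Pearson's r of log2 CPM over the 6 libraries, among tested genes averaging 10 CPM or more. For *Mylpf* they were *Tnnc1*, the slow and cardiac troponin C (r = 0.999), *Mb*, myoglobin (r = 0.998), and *Cox8b*, a cytochrome oxidase subunit of muscle (r = 0.998). *Tnnc1* had 2514 to 3173 TPM in dCas9-KRAB and 3.78 to 4.26 TPM in dCas9-KRAB-En5, and *Mb* and *Cox8b* were listed in no dCas9-KRAB-En5 library. For *Myl9* they were *Plin2*, a lipid droplet protein (r = 0.992), *Gstp2*, a glutathione transferase (r = 0.990), and *Mmp11*, a matrix metalloproteinase (r = 0.985). The 6 points fall into 2 separate groups for *Mylpf*, so its r describes the difference between groups and carries no p. The *Myl9* values also did not overlap between the groups, and they rest on 2 to 91 counts. Its r therefore includes the difference between groups and carries no p either.

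The direction of each of the 9 members tested was the same in every alternative fit made for it, and *Myl3* was fitted only without the filter. For the 4 sarcomeric members tested, each fit that could be made with them kept the call. *Myl6b* also kept its call in every alternative, with log2 fold changes between -4.56 and -3.66. *Myl9* was called in none, with log2 fold changes between -3.20 and -0.96.

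**Figure D5:**
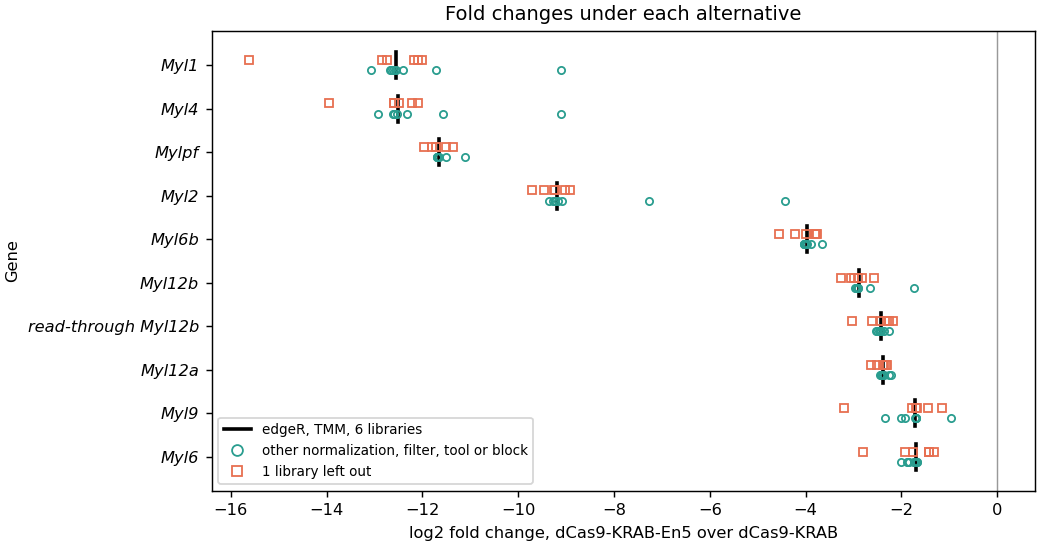
Log2 fold change of each tested light chain gene in edgeR with TMM normalization (black bars), in other normalizations, filters, tools and the replicate block (circles), and with 1 library left out (squares). Every point lies below 0, and the values of *Myl6* run from -2.80 to -1.32.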

How the data were processed

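Polyadenylated RNA of 6 C2C12 libraries, 3 per group, was sequenced in 150-bp paired-end reads. The authors aligned reads to GRCm38 with HISAT2 2.2.1 and counted them per gene with featureCounts, and the deposited count files hold raw counts. The annotation release, the strand setting and the treatment of reads shared by genes are not given in the sources used here. The authors also deposited TPM, that is counts divided by gene length and scaled per library. The length implied by a gene's count and TPM was compared with its GENCODE exons, and differed by less than 1% for 98.62% of 12906 genes, members included. A gene absent from a file was taken as 0.

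Groups and replicate numbers came from the sample labels. Counts were compared with edgeR 4.0.16 in R 4.3.3 (TMM, filterByExpr with a minimum count of 10 and a minimum total count of 15, quasi-likelihood test, condition alone), with Benjamini-Hochberg adjustment over 14378 genes and cutoffs of 0.01 and 1. The SE is the fold change divided by the square root of F. Where no library of a group exceeded 3 counts, folds used 3 counts per library. Promoter windows came from RefSeq and gene symbols and exons from GENCODE. The fit was tested on simulated data. Alternatives were other normalizations, low-count filters and cutoffs, DESeq2 1.42.0, limma-trend (limma 3.58.1) after adding 1 or 0.1 to TPM and taking log2, the replicate block, each library left out and, added after seeing the data, summed copies and the read-through *Myl12b* gene in the light chain shares.

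Deviations from the group means correlated between same-numbered libraries of the groups (0.262, 0.214 and 0.290), so the numbers were treated as pairs in the replicate block. The deviations were negatively correlated between the other libraries. This is no separate sign of pairing, since deviations cancel within each group. Depth was 31831093 to 73988425 counts.

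All 10 members were named, with fixed lists of regulators, heavy chains and other light chains, *Myog*, *Actb* and the 3 genes most like *Mylpf* and like *Myl9*. The values of 1 regulator are not reported here. The members and lists were chosen with earlier results of these data known.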

Additional observations from a re-analysis of the deposited data

How the results depend on the processing

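No tested member changed sign in 169 alternative results of single genes, 20 of which lost a call and 2 of which gained one. Those with a looser p cutoff or no fold cutoff reuse the main fit, so they could not change sign or lose a call. The calls lost were those of *Myl12a*, *Myl12b* and the read-through *Myl12b* gene, and both gains were of *Myl6*. Where a gene needed 10 counts or more in each library, 4 members and 1 sarcomeric member were called, since *Myl1*, *Myl2* and *Myl4* did not pass that filter. Leaving out 1 library gave 1 to 4 smooth and nonmuscle members called, 0 to 5 regulators and 1 to 3 heavy chains. The 7 members called became 6 with total counts and with log2(TPM + 1). The 1 regulator became 0 with total counts and with limma on either pseudocount, and 2 with DESeq2. The 2 heavy chains became 1 under that filter and with log2(TPM + 1), and 4 with DESeq2, which also called *Myh8* and *Myh10* lower. Among all genes, 890 were called (671 lower, 219 higher), against 586 with total counts (516 lower, 70 higher), 2198 without a filter (1194 lower, 1004 higher), 544 under the filter of 10 counts in each (339 lower, 205 higher), 2390 with DESeq2 (1423 lower, 967 higher), 514 with log2(TPM + 1) (482 lower, 32 higher), 2449 at an adjusted p of 0.05, and 222 to 3921 with 1 library left out. With log2(TPM + 0.1) the split was 643 lower and 66 higher. With the replicate block, 1543 genes were called (976 lower, 567 higher), and the block changed no call of a member, with 7 members called.

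Computed from CPM in place of TPM, which is not divided by gene length, the sarcomeric share was 84.2% without and 0.683% with the sgRNAs against Myog-En5, and the sarcomeric essential to regulatory ratio was 0.472 and 0.239. With the read-through gene included, the sarcomeric share was 92.0% in dCas9-KRAB, against 92.3%. The median log2 fold change of all genes ranged from -0.05 to 0.18 over the alternatives. Depth limits *Myl3* in both groups and *Myl1*, *Myl2* and *Myl4* in dCas9-KRAB-En5, where they had between 0 and 31 counts. The cause of the changes with tool and library was not tested.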
